A study of Mus musculus with 13 samples.

Results

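This comparison sets the CD271high cells of the newborn mouse cochlea against the cells of its greater epithelial ridge (GER), 3 arrays each of the 13 in the series. Both were sorted by flow cytometry from cochleae of 3-day-old C57BL6 mice carrying Math1-nGFP, a reporter that puts GFP into the nuclei of hair cells, and both were GFP-negative. CD271high cells were taken for a high level of surface CD271 alone, and their titles call them suspected macrophages. GER cells had low CD271, high CD146 and the epithelial protein CD326. The reporter, strain and age were shared by both groups, and the labels do not say whether the arrays of a group came from separate animals, so p-values cover no more than the spread among these samples, which could be technical alone. Arrays are called A, B and C within each group. Of 18038 genes on the array, 10088 were detected on at least 2 of the 13 arrays and were tested.

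Macrophages settle in most tissues before birth, clear dying cells and debris, and depend on the receptor Csf1r for survival. In the newborn cochlea they lie among the nerve fibres, in the lateral wall and under the sensory epithelium. The GER is a transient ridge of tall columnar cells beside the inner hair cells. It secretes much of the tectorial membrane and regresses before hearing begins. CD271, the low-affinity neurotrophin receptor, is the product of Ngfr, and is known from Schwann cells and, in the organ of Corti, from pillar cells.

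Most of the largest fitted differences were those of macrophage genes, which stood high on every CD271high array and at background on every GER array. Myelin genes of Schwann cells and genes of dividing cells were also higher in CD271high, while general epithelial genes went both ways, with E-cadherin and others clearly detected in both groups. Most measured genes of the GER, of supporting cells and of the Bmp pathway were lower, as were 7 of 19 Notch genes, with 1 higher. These lists share members, so their counts are not independent. Levels are normalized log2 intensities, and a difference is the CD271high mean minus the GER mean with its standard error (SE) from limma. A gene passed if its p, adjusted by the method of Benjamini and Hochberg over the 10088 genes, lay under 0.05.

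Of the genes tested, 1462 (14.5%) were higher in CD271high and 1623 (16.1%) were lower, 3085 (30.6%) in all. The arrays of the groups did not overlap for 1936 genes (19.2%) that were higher and 2495 (24.7%) that were lower. The sides differed in the size of the fitted values: a difference of 8-fold or more was reached by 244 of the higher genes and 32 of the lower, and one of 32-fold or more by 70 and by 0. Of those 70, 64 had no GER array with signal well above background. The arrays lay on 2 beadchips, CD271high B and C and GER A and B on beadchip 1 and CD271high A and GER C on beadchip 2. Within beadchip 1, 1258 genes were higher and 1204 lower. Within beadchip 2, where 1 array stands against 1 and the spread comes from its hair cell arrays, 328 were higher and 132 lower.

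Arrays of a group resembled each other more than those of the other group. Pearson's r over the tested genes, which share platform and normalization, was 0.979 to 0.983 among CD271high arrays and 0.978 to 0.982 among GER arrays, against 0.873 to 0.890 between them. Between 44.1% and 45.2% of probes were detected on the CD271high arrays and 40.6% to 41.5% on the GER arrays. The median difference over all genes tested was -0.10 and the median SE 0.21.

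**Figure D1:**
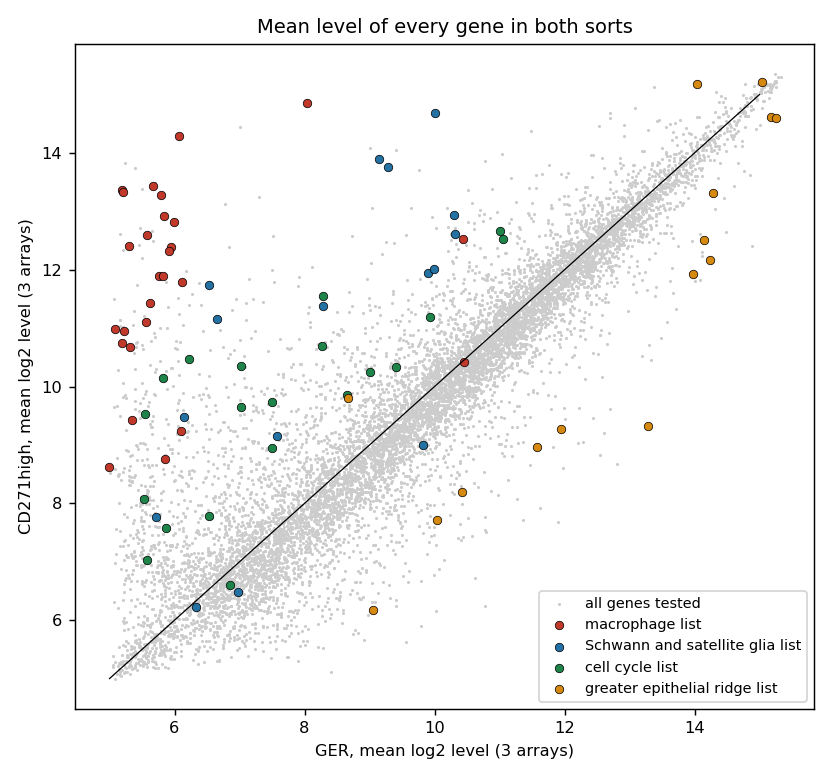
Mean log2 level of each of the 10088 genes in GER (x axis, 3 arrays) and CD271high (y axis, 3 arrays), with the members of 4 gene lists in colour and a line of equal level. Most macrophage genes stand at the left edge, at GER background and 9 or more in CD271high, while most genes of the greater epithelial ridge list lie under the line.

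The sort itself was read first from the transcripts of its proteins. Ngfr, which encodes CD271, read 8.82, 8.66 and 9.53 on CD271high arrays A, B and C and 10.21, 9.94 and 9.31 on the GER arrays. The groups overlapped, and the transcript was not higher in the cells taken for high surface CD271: the difference was -0.82 ± 0.31 (adjusted p = 0.0698). It passed as lower without CD271high C (-1.08, adjusted p = 0.0285) and without GER C (-1.07, adjusted p = 0.0308). Mcam, which encodes CD146, a protein of the GER gate, lay at 11.16 to 11.58 in CD271high and 11.59 to 11.87 in GER (-0.33 ± 0.23, adjusted p = 0.32). Atoh1, the hair cell transcription factor whose enhancer drives the reporter, was not well above background on any of the 6 arrays. The gene of CD326 was not analysed here.

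The label of suspected macrophages was checked against the macrophage list. Of 32 genes on the array 27 were measured, and 26 were higher in CD271high. The median difference was 6.08, or 4.62 with the genes undetected in GER at their lower bound, against -0.10 over all genes tested. In the authors' log2 values, which carry no background correction, it was 4.01. In 24 of the 27 no GER array was well above background, and these passed the detection filter only through the other groups, so a higher reading outside GER was built into their choice. The same holds for members of the lists below that are given as bounds, and the counts of those lists are descriptions. Each list count stands beside the 14.5% of all genes tested that were higher and the 16.1% that were lower. The mean level of the list was 11.70 to 11.86 on the CD271high arrays and 5.94 to 6.13 on the GER arrays. In bulk RNA, fewer cells of a type and less RNA per cell cannot be told apart.

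C1qb is a chain of C1q, the protein that starts the classical complement cascade. Its arrays read 13.86, 13.68 and 13.93 in CD271high and 5.24, 5.17 and 5.28 in GER. On the 4 hair cell arrays C1qb was also detected, at 9.96 to 10.24. C1qc, another chain, read 13.87, 13.47 and 13.87 in CD271high against 5.17, 5.48 and 5.50 in GER. CD271high and GER stood far apart in both genes. Since neither was well above background in GER, the fold is a lower bound, set against the dimmest signal still detected on each GER array: at least 94.6-fold for C1qb and at least 89.0-fold for C1qc. C1qa, the third chain, was at least 23.1-fold higher (adjusted p = 5.29e-09). The 3 genes lie within 18.7 kb of chromosome 4 (GRCm38.p6). Other complement genes differed less: the list had 4 of 7 measured members higher and 0 lower, and the fourth, Serping1, an inhibitor of C1, was higher by 1.14 ± 0.26 (adjusted p = 0.00585).

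Mrc1, the mannose receptor of tissue macrophages, read 14.43, 14.19 and 14.27 in CD271high and 5.84, 6.38 and 6.0 in GER, at least 131-fold. Pf4, a chemokine of platelets and resident macrophages, followed with 13.33, 13.36 and 13.41 against 5.17, 5.19 and 5.2, at least 68.7-fold. The replicate arrays of either group lay within 1 unit of each other in both genes. The promoters of these 4 genes are shown because they came first by fitted difference; being undetected in GER, they have no order by true size among themselves or against genes like them. Each runs from 250 bases before the start of 1 transcript of the gene to 50 after it, from RefSeq on GRCm38.p6, 5′ to 3′ along the gene. That start need not be the outer end of the gene. The capitals mark AGGAAGT or its complement ACTTCCT, letters of the kind bound by PU.1, the product of Spi1 and a master regulator of myeloid cells.

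C1qb (chr4:136886151-136886450, minus strand): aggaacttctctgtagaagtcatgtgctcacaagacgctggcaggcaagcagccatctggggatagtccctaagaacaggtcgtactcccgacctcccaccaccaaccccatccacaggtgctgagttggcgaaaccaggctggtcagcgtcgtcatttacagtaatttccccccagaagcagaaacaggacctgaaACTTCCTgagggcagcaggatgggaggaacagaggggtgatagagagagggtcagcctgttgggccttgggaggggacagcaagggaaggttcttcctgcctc
C1qc (chr4:136892865-136893164, minus strand): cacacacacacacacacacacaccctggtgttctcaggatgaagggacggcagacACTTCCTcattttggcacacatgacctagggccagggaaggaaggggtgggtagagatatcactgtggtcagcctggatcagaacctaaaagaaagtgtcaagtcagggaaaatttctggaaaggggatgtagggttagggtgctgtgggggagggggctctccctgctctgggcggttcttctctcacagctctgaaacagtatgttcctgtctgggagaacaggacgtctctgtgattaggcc
Mrc1 (chr2:14229164-14229463, plus strand): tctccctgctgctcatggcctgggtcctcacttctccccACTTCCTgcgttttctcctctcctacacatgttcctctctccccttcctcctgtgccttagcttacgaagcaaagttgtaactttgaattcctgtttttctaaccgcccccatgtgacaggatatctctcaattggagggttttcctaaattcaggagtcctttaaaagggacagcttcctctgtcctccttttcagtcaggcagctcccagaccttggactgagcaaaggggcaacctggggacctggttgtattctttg
Pf4 (chr5:90772185-90772484, plus strand): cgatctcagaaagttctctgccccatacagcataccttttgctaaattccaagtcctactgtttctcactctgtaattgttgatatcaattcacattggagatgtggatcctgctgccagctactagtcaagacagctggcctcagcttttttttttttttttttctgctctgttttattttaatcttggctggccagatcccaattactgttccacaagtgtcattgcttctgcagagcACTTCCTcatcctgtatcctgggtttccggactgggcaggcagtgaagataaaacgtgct

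Searched on both strands, AGGAAGT stood once in each of these 4 windows. Of the macrophage list, 19 of the 27 measured genes had a window, 25 windows in all, and 7 (28.0%) held it, against 3072 of all 32851 windows (9.35%). A match is a run of letters and not a measured binding site. Spi1 itself read 8.89, 8.64 and 8.77 in CD271high and 6.10, 5.70 and 5.78 in GER, at least 2.83-fold higher. Irf8, a partner of PU.1 in the myeloid lineage, was at least 3.92-fold higher (adjusted p = 1.09e-06).

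Receptors and scavenger genes of the macrophage surface were bright in CD271high and at background in GER. Csf1r, the receptor for the macrophage growth factors, read 13.38, 13.34 and 13.57 in CD271high and 5.66, 6.26 and 5.10 in GER, at least 71.9-fold higher. Cx3cr1, the fractalkine receptor, read 13.17, 12.75 and 12.86 against 5.95, 6.28 and 5.28, at least 50.8-fold. No GER array reached the CD271high range for either receptor. Adgre1, which encodes a standard macrophage surface marker, was at least 33.3-fold higher (adjusted p = 2.41e-08). Stab1 and Lyve1, a scavenger and a hyaluronan receptor found on resident and perivascular macrophages, exceeded GER by at least 65.0-fold and 35.2-fold. Cd163, the receptor for haemoglobin bound to haptoglobin, was at least 13.2-fold higher. Cd68, a glycoprotein of the macrophage endosome, and Trem2, a lipid-sensing receptor that signals through Tyrobp, were at least 24.9-fold and 24.7-fold higher.

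Laptm5, found in lysosomal membranes of haematopoietic cells, was detected in both groups and so gives a measured difference. It read 14.93, 14.76 and 14.88 in CD271high and 7.35, 8.30 and 8.45 in GER, 6.82 ± 0.35 higher (adjusted p = 4.62e-08). Laptm5 was not particular to CD271high, since it stood at 13.33 to 13.67 on the 4 hair cell arrays. Lyz1, a lysozyme, was detected on 1 GER array and stood 7.44 ± 0.47 higher (adjusted p = 2.67e-07). Its near copy Lyz2 was at least 40.5-fold higher, and cross-hybridization between the probes of the pair was not tested. The measured member that did not pass was Mertk, a receptor for dying cells, at 10.17 to 10.79 in CD271high and 10.06 to 10.68 in GER (-0.02 ± 0.27, adjusted p = 0.973). The other 5 genes of the list, Itgam, Ptprc, Maf and Msr1 among them, were detected on fewer than 2 arrays of the series and were not tested.

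The remaining genes among the 15 taken by fitted difference were also those of myeloid cells. F13a1, the A chain of coagulation factor XIII, was at least 67.4-fold higher, and Ccl12, a monocyte chemoattractant, at least 40.7-fold. Fcer1g, the common chain of Fc receptors, was at least 69.9-fold higher, Fcrls, an Fc receptor-like protein, at least 74.3-fold. Ms4a6d and P2ry13, a membrane protein and a nucleotide receptor of macrophages, were at least 43.9-fold and 33.6-fold higher.

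**Figure D2:**
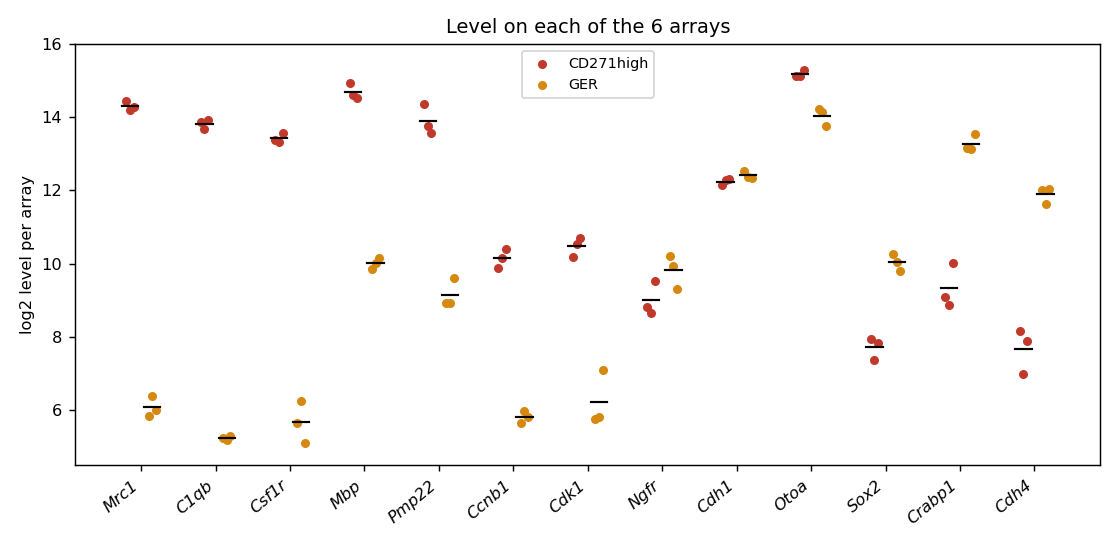
Log2 level of 13 genes on each of the 6 arrays (points, left to right A, B and C) with the group mean (bars). Mrc1, C1qb and Csf1r stand above 13 on all CD271high arrays and under 7 on all GER arrays, Ngfr overlaps between the groups and Cdh1 lies near 12 in both.

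By function, the receptors for antibodies come first. The 8 measured members of the Fc receptor list were higher, with a median of 4.81, 3.00 with bounds and 2.75 in the authors' log2 values; 7 of them were undetected in GER, so their direction was largely set by the detection filter. Fcgr3, an activating receptor, was at least 37.4-fold higher, and Fcgr2b, the inhibitory receptor, at least 13.6-fold. Fcgrt, the neonatal Fc receptor that recycles antibody, was high in both groups, at 13.55 to 13.79 in CD271high and 11.49 to 12.32 in GER, and still 1.68 ± 0.21 higher (adjusted p = 8.16e-05).

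Of 17 measured chemokines and chemokine receptors, 13 were higher and 1 was lower. Ccl4 and Ccl3, which draw in leukocytes, were at least 30.6-fold and 18.9-fold higher, and Ccl7 at least 13.5-fold. These 3 stood lower on CD271high C, at 11.67, 10.72 and 10.32, than on A and B, where Ccl4 read 12.44 and 12.48. The lower gene was Cxcr4, the receptor of Cxcl12, at 8.22 to 8.81 in CD271high and 9.29 to 9.41 in GER (-0.89 ± 0.20, adjusted p = 0.00514), and it missed the threshold within beadchip 1 (-0.79, adjusted p = 0.0515).

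Inflammatory genes followed the chemokines in direction. Of 14 measured genes of inflammatory signalling 10 were higher and 1 was lower, the lower count being 0 without CD271high A or without GER A. Cd86, a costimulatory protein, and Tlr7, a sensor of single-stranded RNA, were at least 14.7-fold and 11.2-fold higher. Tnf read 9.0, 9.04 and 7.69 in CD271high and Il1b 7.57, 8.98 and 7.09, and neither cytokine was well above background in GER. Both varied by over 1 unit among the CD271high arrays, with the lowest value on C. The bound was at least 2.49-fold for Tnf (adjusted p = 4.94e-06) and at least 1.54-fold for Il1b (adjusted p = 0.000556).

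Of the interferon response list, 10 of 17 measured genes were higher and 0 were lower, with a median of 1.37. Gbp2, a guanylate-binding protein, was at least 2.17-fold and Oasl2, of the oligoadenylate synthetase family, at least 4.38-fold higher. Antigen presentation was mixed. Cd74, the invariant chain of MHC class II, read 9.40, 8.05 and 9.36 in CD271high, at least 3.19-fold above GER, and H2-Ab1 was at least 1.30-fold higher. H2-DMa, which loads peptides onto class II, was lower instead, at 10.38 to 10.44 against 11.04 to 11.73 in GER (-1.04 ± 0.19, adjusted p = 0.00155). The list had 2 of 5 measured genes higher and 1 lower.

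The lysosome list divided by enzyme. Of 31 measured genes 16 were higher, 2 were lower and 13 did not pass, with a median of 0.55. The protease Lgmn was high in both groups and read 14.06, 13.74 and 13.80 in CD271high against 10.82, 10.67 and 10.85 in GER, 3.09 ± 0.26 higher (adjusted p = 2.76e-06). Among the cathepsins, Ctss, the protease that trims the invariant chain, was at least 7.78-fold higher and Ctsc, which activates granule proteases, at least 1.96-fold. The 2 lower genes were Glb1 (-0.54) and Tpp1 (-0.66), of which Glb1 did not pass without CD271high C (adjusted p = 0.0663), GER A (0.0729) or GER B (0.0532), and Tpp1 not without GER C (0.0544).

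Genes for taking up dying cells and lipid had 10 of 14 measured members higher, 1 lower and a median of 2.20. Apoe, the main lipid carrier secreted by macrophages and glia, read 13.48, 13.80 and 13.85 in CD271high and 10.05, 9.44 and 9.78 in GER, 3.95 ± 0.21 higher (adjusted p = 6.43e-08). Lpl, which releases fatty acids from lipoproteins, was at least 11.5-fold higher, and P2ry6, a nucleotide receptor that triggers phagocytosis, at least 58.2-fold. Gas6 and Pros1, which bridge dying cells to Mertk and its relatives, were higher by 2.10 ± 0.24 and 2.89 ± 0.35. Abcg1, a cholesterol exporter, was the lower gene (-1.53 ± 0.26, adjusted p = 0.000934).

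Iron genes had 6 of 9 measured members higher, 0 lower (1 without CD271high A or GER B) and a median of 1.55. Slc40a1, which encodes ferroportin, the cellular iron exporter, read 14.43, 14.08 and 13.75 in CD271high and 8.72, 9.19 and 9.08 in GER, 5.09 ± 0.27 higher (adjusted p = 5.39e-08). Hmox1, which breaks down heme, was at least 3.78-fold higher. Hfe, a regulator of iron uptake, was 3.02 ± 0.20 higher and Blvrb, which acts after heme breakdown, 1.55 ± 0.21.

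Among growth factor genes tied to macrophages, 4 of 11 measured were higher and 0 lower. Beside Csf1r these were Tgfb1, at least 6.02-fold, its receptor Tgfbr2, 3.08 ± 0.22 (adjusted p = 7.1e-07), and Osm, a cytokine of the interleukin-6 family, at least 1.80-fold. Csf1 and Il34, the ligands of Csf1r, were detected on fewer than 2 arrays and were not tested.

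Other cells of the blood line left fewer traces. Of 13 lymphocyte genes on the array 11 were detected on fewer than 2 arrays, among them Cd3e, Cd4, Cd8a and Ms4a1. Of the 2 measured, Cd79b was at least 4.27-fold higher and Lck was lower (-1.18 ± 0.22). The granulocyte list had 3 of 6 measured members higher, between 2 and 5 without 1 array (5 without GER C), and 0 lower (1 without GER A). Its range of mean levels on the CD271high arrays was 7.29 to 7.89, against 5.93 to 7.26 in GER. Camp, an antimicrobial peptide of neutrophils, read 9.31, 9.69 and 7.63 in CD271high and was at least 3.06-fold higher. Mpo, Elane and Cxcr2 were not tested for the same reason as the lymphocyte genes. The osteoclast list, a bone-resorbing relative of macrophages, had all 3 measured genes higher, among them Tnfrsf11a, at least 4.53-fold, while Calcr and Acp5 were not detected on 2 arrays. Of 4 measured mast cell genes 1 was higher and 1 lower, and the higher count was 0 without any 1 of CD271high A, CD271high B, GER A or GER B and 2 without CD271high C. Erythroid genes had 1 of 3 higher, and 0 without CD271high A, CD271high C or GER A.

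**Figure D3:**
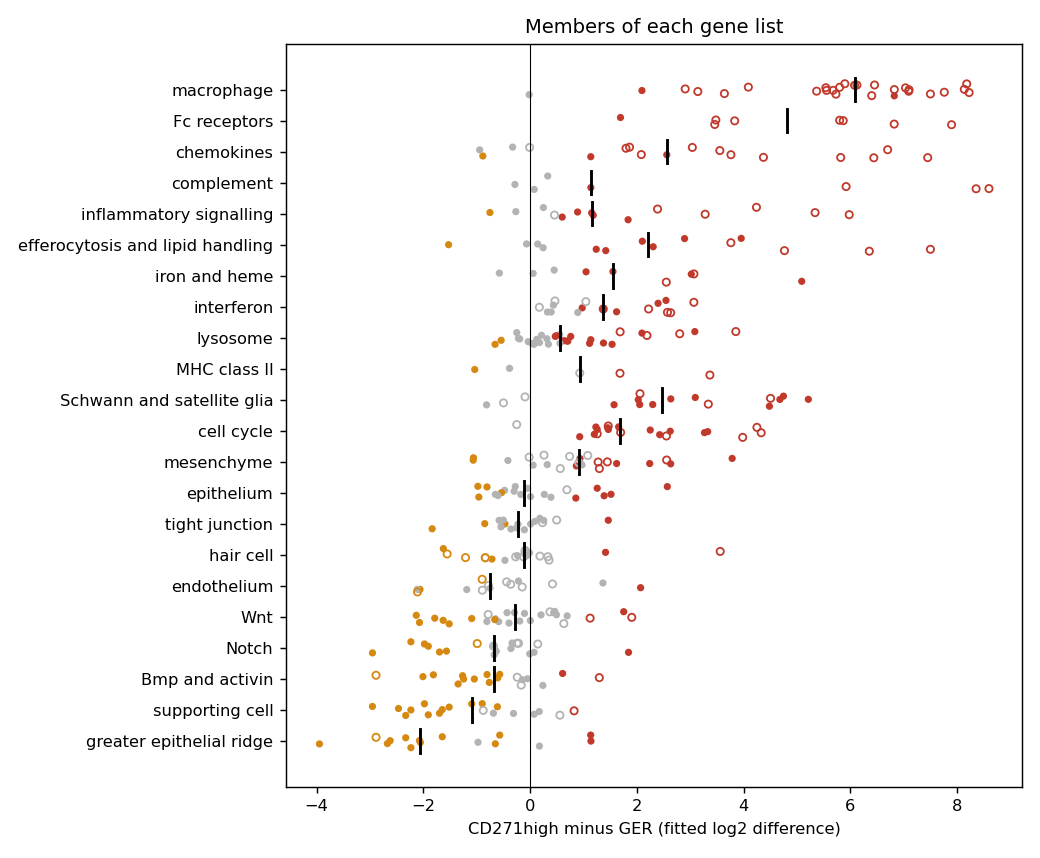
Difference CD271high minus GER (log2) of each measured member of 22 gene lists, red where it passed as higher, orange where it passed as lower and grey where it did not pass; open circles are genes not well above background in at least 1 of the groups, whose difference is not a bound, and black bars are medians. The macrophage and Fc receptor lists lie furthest to the right and the greater epithelial ridge list furthest to the left.

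The next set after the myeloid genes was myelin. Schwann cells wrap the axons of the auditory nerve in compact myelin. Mbp, which compacts myelin from the inside, read 14.94, 14.61 and 14.52 in CD271high and 9.84, 10.03 and 10.16 in GER, a difference of 4.68 ± 0.79 (adjusted p = 0.000759). Pmp22, a membrane protein of peripheral myelin, read 14.36, 13.77 and 13.56 against 8.93, 8.93 and 9.60, a difference of 4.75 ± 0.75 (adjusted p = 0.000497). Both genes were thus also above background in GER, with no overlap. Prx, which stabilizes myelin of large axons, was at least 14.9-fold higher.

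Dhh, the hedgehog ligand that Schwann cells send to the nerve sheath, had the largest difference of the list. It read 11.81, 11.51 and 11.90 in CD271high and 6.11, 5.92 and 7.56 in GER, where it was detected on 1 array, 5.21 ± 0.88 higher (adjusted p = 0.000797). Of the 16 measured genes of Schwann and satellite glia 13 were higher and 0 lower, with a median of 2.47. Mag, Mal and Cnp were among them, with differences of 3.09, 2.30 and 2.05. Gap43, not well above background in GER, was at least 1.42-fold higher. Egr2, the transcription factor of myelination, was higher by 2.03 ± 0.65 (adjusted p = 0.0335) and did not pass without CD271high A (0.0793), CD271high B (0.107) or GER A (0.126). Those that did not pass were Ngfr, S100b (-0.09) and Ncam1 (-0.50), and the probes of Ncam1 disagreed in direction. S100b was undetected in both groups, and the Ncam1 probe used was detected on only 1 CD271high array and not in GER. The differences of S100b and Ncam1 therefore do not show equal levels. The lower count was 1, through Ngfr, without CD271high C or GER C. Sox10 and Erbb3 were not analysed here.

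The spread behind these errors came from all 13 arrays. A hair cell array, HC D, read 12.18 for Mbp against 8.05 to 9.63 on the other 3, which widens it. In a fit of the 6 arrays alone the adjusted p was 1.19e-06 for Mbp and 8.88e-06 for Pmp22. The mean level of the list was 10.85 to 10.95 in CD271high, 8.16 to 8.40 in GER and 11.75 on the single array of the sort from below the basilar membrane (BM). For macrophage genes the BM array stood at 6.71, so the lists did not rank the groups alike.

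Neuron and mesenchyme lists were mixed in direction. Of 11 measured neuron genes 2 were higher and 4 lower, where 14.5% and 16.1% of all genes were. The higher neuron count was 1 without CD271high B, CD271high C or GER C. The lower genes included Stmn2, a tubulin-binding protein also placed in the GER list, and Gata3, a transcription factor also active in the cochlear epithelium (-2.08 ± 0.23). Tubb3, Nefl and Prph were not detected on 2 arrays. Of 22 measured genes of mesenchyme 10 were higher and 2 lower, the lower count being 0 without any GER array and 1 without CD271high B or C. Col3a1, a fibrillar collagen, read 10.54, 10.77 and 11.07 in CD271high and 6.16, 7.27 and 7.59 in GER. It was detected on only 1 GER array and was 3.78 ± 0.93 higher (adjusted p = 0.00899). Pdgfra, a receptor of fibroblasts and glial precursors, was higher by 1.62 ± 0.17, whereas Dcn, a matrix proteoglycan, was high in both groups at 13.83 to 13.94 and 14.22 to 14.42 (-0.42 ± 0.19, adjusted p = 0.129) and passed as lower with median scaling (-0.56, adjusted p = 0.0328).

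For the other lists of the cochlear wall, the shares over all genes tested were 14.5% higher and 16.1% lower. Endothelium had 1 of 15 measured genes higher and 3 lower. The higher count was 0 without CD271high A, CD271high B, GER A or GER B and 2 without GER C, and the lower count was 1 without CD271high A, CD271high B, GER B or GER C. Flt1, a Vegf receptor, was detected on only 1 CD271high array and was lower (-2.06 ± 0.52). The mean of the endothelium list was 6.71 to 7.01 in CD271high and 6.72 to 8.36 in GER, with the high value on GER C. Pericytes and smooth muscle had 3 of 9 higher and 1 lower. Bone and cartilage had 1 of 10 higher and 1 lower. The higher gene was Spp1, osteopontin, a matrix protein also secreted by macrophages, at least 10.4-fold. In that list 2 were higher without CD271high B, CD271high C or GER B. Melanocyte and stria genes had 2 of 5 higher and 0 lower, with 1 higher without CD271high B or GER A and 1 lower without GER C.

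Genes of dividing cells formed the third set. Of 20 measured cell cycle genes 19 were higher and 0 lower, with a median of 1.68, or 1.46 with bounds, against -0.10 over all genes. Ccnb1, the cyclin that drives entry into mitosis, read 9.88, 10.14 and 10.41 in CD271high and 5.66, 5.98 and 5.80 in GER, at least 7.37-fold higher. Its kinase Cdk1 read 10.18, 10.54 and 10.70 against 5.76, 5.81 and 7.11, at least 9.26-fold. Top2a, which untangles replicated chromosomes, was at least 4.79-fold higher (adjusted p = 4.44e-05). The promoters of these 3, taken by fitted difference although their sizes are only bounded, are printed in the same way, with 2 kinds of letters in capitals: TTTGAA (or TTCAAA), the core of the element by which mitotic genes are held down in resting cells, and CCAAT (or ATTGG), the letters bound by NF-Y.

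Ccnb1 (chr13:100786437-100786736, minus strand): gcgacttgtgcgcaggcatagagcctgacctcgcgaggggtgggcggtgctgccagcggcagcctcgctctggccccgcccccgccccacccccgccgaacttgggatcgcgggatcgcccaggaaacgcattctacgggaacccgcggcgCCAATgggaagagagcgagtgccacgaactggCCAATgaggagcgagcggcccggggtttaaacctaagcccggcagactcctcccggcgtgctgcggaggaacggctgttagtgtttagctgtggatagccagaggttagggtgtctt
Cdk1 (chr10:69352863-69353162, minus strand): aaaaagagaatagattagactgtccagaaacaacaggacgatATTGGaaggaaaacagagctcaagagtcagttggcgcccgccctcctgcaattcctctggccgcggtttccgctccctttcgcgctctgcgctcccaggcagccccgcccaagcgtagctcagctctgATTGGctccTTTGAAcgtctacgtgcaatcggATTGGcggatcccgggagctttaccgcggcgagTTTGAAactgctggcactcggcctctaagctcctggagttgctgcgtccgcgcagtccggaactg
Top2a (chr11:99024140-99024439, minus strand): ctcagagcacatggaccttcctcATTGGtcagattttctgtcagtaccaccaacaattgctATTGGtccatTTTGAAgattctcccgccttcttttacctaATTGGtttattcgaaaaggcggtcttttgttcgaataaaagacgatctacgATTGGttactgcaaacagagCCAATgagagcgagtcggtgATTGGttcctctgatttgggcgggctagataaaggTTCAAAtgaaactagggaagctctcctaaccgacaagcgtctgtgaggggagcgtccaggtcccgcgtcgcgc

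The windows of Cdk1 and Top2a held both motifs and that of Ccnb1 only CCAAT; no copies overlapped. Of the 20 measured genes 19 had a window. TTTGAA was in 9 of them (47.4%), against 17.9% of all windows, and CCAAT in 16 (84.2%) against 37.4%.

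Replication and mitotic genes detected on at least 1 array of each group were also higher. Mcm5, a subunit of the replicative helicase, read 11.15, 11.46 and 12.05 in CD271high and 8.02, 8.49 and 8.35 in GER, 3.27 ± 0.43 higher (adjusted p = 0.000116). Plk1, a mitotic kinase, and Birc5, survivin, were each detected on only 1 GER array. Plk1 was higher by 2.62 ± 0.27 and Birc5 by 3.33 ± 0.46. The member that did not pass was Ccne1, the cyclin of entry into S phase (-0.25 ± 0.31, adjusted p = 0.587). It lay near background, detected on only 1 CD271high array and not in GER. The mean level of the list was 9.54 to 9.89 in CD271high, 7.47 to 7.82 in GER and 9.67 on the BM array. Which of the cells in the sort divide was not tested. Of 8 Cdk inhibitors 2 were higher and 0 lower, and Cdkn2c, an inhibitor of the G1 kinases, was at least 4.03-fold higher. The higher count was 1 without CD271high A, CD271high C or GER C, and 1 was lower without GER C.

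**Figure D4:**
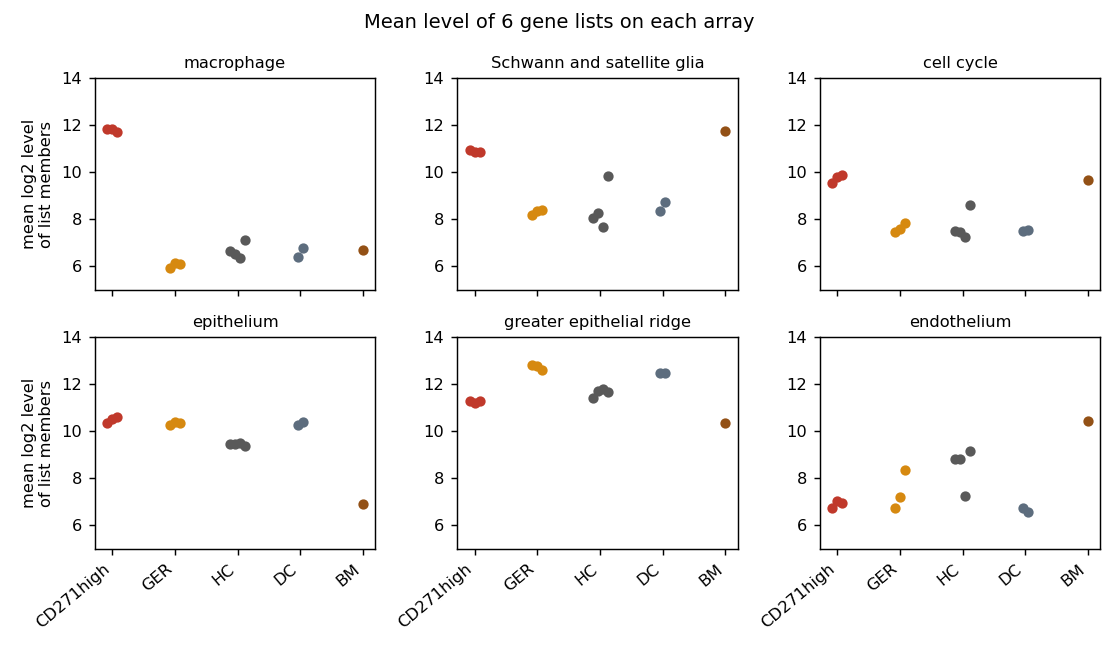
Mean log2 level of the measured members of 6 lists on each of the 13 arrays (points, in replicate order); HC are hair cells, DC the gate labelled for cells of Deiters and Claudius and BM the sort from below the basilar membrane. CD271high stands near 12 for macrophage genes, where the other groups lie between 5 and 8, and at the level of GER and DC for epithelium.

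The epithelial list, the markers of the cells on the other side of the comparison, did not fall to background in CD271high. Its mean level was 10.37 to 10.60 in CD271high, 10.26 to 10.39 in GER and 6.89 on the BM array. Cdh1, E-cadherin, read 12.14, 12.29 and 12.30 in CD271high and 12.54, 12.38 and 12.33 in GER, a difference of -0.17 ± 0.14 (adjusted p = 0.377). Grhl2, a transcription factor of epithelial identity, differed by -0.28 ± 0.17 (adjusted p = 0.265). Over all genes tested 14.5% were higher and 16.1% lower. Of 20 measured epithelial genes 5 were higher, 4 were lower and 11 did not pass, and the median was -0.11. The higher ones included 4 keratins: Krt23 read 13.16, 13.31 and 12.97 in CD271high and 10.78, 10.92 and 10.03 in GER, 2.57 ± 0.25 higher (adjusted p = 1.2e-05), and Krt7, Krt19 and Krt15 were higher by 1.52, 1.39 and 1.26. Elf3 and Spint1, an epithelial transcription factor and a protease inhibitor, differed by -0.96 and -0.98, the latter not passing within beadchip 1 (-0.76, adjusted p = 0.102). How the epithelial RNA of CD271high divides among its cells was not tested.

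Tight junction genes gave a like picture, with 1 of 17 higher, 3 lower and a median of -0.23, which is close to or under the 14.5% and 16.1% of all genes. Cldn10 was the higher gene (1.46 ± 0.18), and a second passed without CD271high A. Cldn11, a claudin of the stria and of myelin, read 12.57 to 12.77 in CD271high and 14.30 to 14.71 in GER (-1.83 ± 0.37, adjusted p = 0.00246). Among 6 gap junction genes 1 was higher, 0 without CD271high C or GER C, and 2 were lower. These were Gjb6 and Gjb2, the connexins of cochlear supporting cells, and Gjb6 read 11.17, 11.21 and 10.95 in CD271high and 13.59, 13.67 and 13.47 in GER (-2.46 ± 0.18, adjusted p = 7.99e-07).

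Genes that mark the GER were in turn lower in CD271high, though few fell to background. The list was written from general knowledge of the tissue and had 11 of 15 measured members lower and 2 higher, with a median of -2.05. Crabp1, which binds retinoic acid in the cell, had the largest difference of the list. It read 9.10, 8.86 and 10.03 in CD271high and 13.16, 13.14 and 13.53 in GER (-3.95 ± 0.76, adjusted p = 0.0019). Crabp2, of the same family, differed by -2.67, and Fst, follistatin, which blocks activins, was at least 4.70-fold lower. Fgf10, an Fgf ligand of the ridge, read 12.10, 12.03 and 11.63 against 14.02, 14.02 and 13.89 (-2.05 ± 0.15, adjusted p = 1.02e-06), and Dkk3, a secreted protein of the Dickkopf family, differed by -2.07 ± 0.14. Both were detected on every array of either group, with no overlap.

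Among the matrix genes of the tectorial membrane in the GER list, alpha- and beta-tectorin were lower and otoancorin was higher. Tecta, alpha-tectorin, read 14.61, 14.53 and 14.65 in CD271high and 15.25, 15.22 and 15.27 in GER (-0.65 ± 0.12, adjusted p = 0.00139). Tectb, beta-tectorin, differed by -0.57 ± 0.19 (adjusted p = 0.0398), a call that was lost without any 1 of the arrays but CD271high A (-0.33 to -0.64, adjusted p = 0.055 to 0.128). Otoa, otoancorin, which anchors that membrane, was higher in CD271high, at 15.13, 15.12 and 15.30 against 14.23, 14.14 and 13.76 (1.14 ± 0.16, adjusted p = 0.000205). These genes lay near the top of the scale in both groups. Prss23, the other higher member, named with its values in view, had a difference of 1.13 and did not pass without CD271high A (adjusted p = 0.0773), CD271high B (0.119), GER B (0.0943) or GER C (0.124). In the list of tectorial and inner ear matrix 3 of 13 genes were higher and 5 lower. Otol1, a collagen-like otoconial protein, was lower (-3.01 ± 0.44), and Otor, otoraplin, was at least 2.89-fold higher.

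Supporting cell genes had 12 of 19 measured members lower, 1 higher and a median of -1.09. Sox2, the transcription factor of the prosensory domain, read 7.93, 7.36 and 7.84 in CD271high and 10.26, 10.05 and 9.81 in GER (-2.33 ± 0.24, adjusted p = 1.51e-05). Lgr5, a receptor for R-spondins and a marker of cells that can form new hair cells, read 7.74, 7.57 and 7.93 against 9.61, 9.23 and 8.94 (-1.52 ± 0.25, adjusted p = 0.000645). The groups did not overlap in either gene. Slc1a3, a glutamate transporter, differed by -0.90. The higher gene was Glul, glutamine synthetase, named with its values in view (adjusted p = 0.0126). It was dim, at 7.14 to 7.71 in CD271high and not well above background in GER, so at least 1.14-fold higher. Glul did not pass without CD271high A (0.69, adjusted p = 0.0531). The lists of neighbouring cells were uneven. Pillar and Deiters cell genes had 3 of 15 higher and 4 lower, where 14.5% and 16.1% of all genes were. Among the 15, Npy, a neuropeptide, was 1.90 ± 0.29 higher. Lesser ridge and Claudius cell genes had 2 of 9 higher and 6 lower, with 1 higher without CD271high B, GER A or GER C. Slc26a4, pendrin, an anion exchanger of the outer sulcus, read 11.18, 11.71 and 11.54 in CD271high and 9.45, 9.97 and 9.36 in GER, 1.88 ± 0.28 higher (adjusted p = 0.000287), and Lmo3 was at least 4.43-fold lower.

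Hair cell genes were mixed. Of 20 measured 10 were not well above background in CD271high and 10 in GER. Of these 20, 5 were lower and 2 higher, where 16.1% and 14.5% of all genes were. Myo7a, the unconventional myosin of hair bundles, read 9.04, 8.67 and 9.36 in CD271high and was at least 3.40-fold higher than in GER, while it stood at 12.52 to 13.46 on the 4 hair cell arrays. Ush1c, harmonin, was lower, at 11.84 to 12.27 against 13.45 to 13.92 (-1.62 ± 0.17, adjusted p = 1.73e-05).

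**Figure D5:**
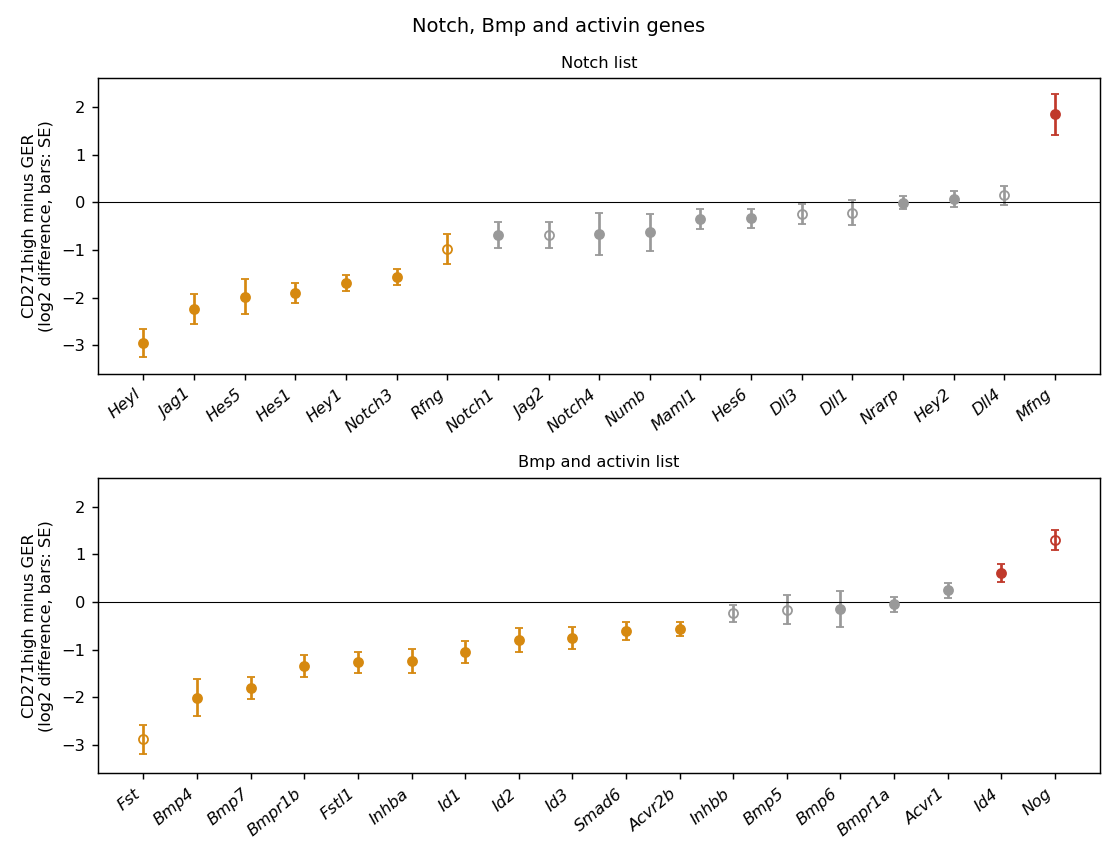
Difference CD271high minus GER (log2, with SE bars) of all measured members of the Notch list and of the Bmp and activin list, orange where lower, red where higher, grey where the test was not passed and open where a group was not well above background. Of 19 Notch genes 7 are orange, with Heyl lowest, and of 18 Bmp and activin genes 11 are.

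The Notch pathway, by which hair cells hold their neighbours to the supporting cell fate, had 7 of 19 measured genes lower and 1 higher, with a median of -0.67. Among ligands, Jag1 read 8.17, 8.26 and 8.14 in CD271high and 10.77, 10.78 and 9.71 in GER (-2.23 ± 0.31, adjusted p = 0.000196). Of the receptors, Notch3 was lower (-1.57 ± 0.16). Among the target genes, Hes1 read 7.89, 7.78 and 8.0 against 9.88, 9.86 and 9.65 (-1.91 ± 0.21, adjusted p = 2.71e-05), and Hey1 11.77, 11.60 and 11.76 against 13.63, 13.48 and 13.10 (-1.70 ± 0.17). Heyl and Hes5, detected on 1 CD271high array each and on all 3 of GER, differed by -2.95 ± 0.29 and -1.98 ± 0.37. Jag1, Hes1, Hey1, Heyl and Hes5 are also members of the supporting cell list. The higher gene was Mfng, a glycosyltransferase that modifies Notch receptors, at 9.25, 9.17 and 8.79 against 5.94, 7.47 and 8.26 (1.84 ± 0.43, adjusted p = 0.00662).

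Bmp and activin genes had 11 of 18 measured members lower, 2 higher and a median of -0.69. Of the ligands, Bmp4 read 9.32, 8.53 and 9.40 in CD271high and 10.99, 11.51 and 10.78 in GER (-2.01 ± 0.39, adjusted p = 0.00222), and Bmp7 9.0, 9.11 and 9.37 against 10.67, 11.12 and 11.12 (-1.81 ± 0.23). Inhba, the activin A subunit, differed by -1.24. Of the targets, Id1, an inhibitor of differentiation, was lower (-1.04 ± 0.23, adjusted p = 0.00482; -1.01 and 0.0501 within beadchip 1). The antagonist Nog, noggin, passed as higher (adjusted p = 0.000556) but was dim, at 6.90 to 7.62 in CD271high and not well above background in GER. Of the higher count, 1 was left without CD271high A, GER A or GER C.

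In the Wnt list 3 of 27 genes were higher and 7 lower, where 14.5% and 16.1% of all genes were, so the higher count was no larger a share than the background. The lower ones included the secreted antagonists Sfrp2 (-2.13 ± 0.27) and Frzb (-1.63 ± 0.35) and the receptor Fzd8 (-1.79 ± 0.33). Frzb and Fzd8 were detected on only 1 CD271high array each. The ligand Wnt4, detected on only 1 GER array, was higher (1.75 ± 0.39, adjusted p = 0.0053). Within beadchip 1 it did not pass (1.23, adjusted p = 0.0675). In the Wnt list 1 gene was higher without CD271high A. Fgf genes had 2 of 8 higher and 1 lower. Fgf1 was at least 1.65-fold higher and Dusp6, a target that damps Fgf signals, was 0.96 ± 0.21 higher. Of 5 measured neurotrophin genes, the family whose receptor set the gate, 3 were lower and 0 higher: Bdnf, at least 1.68-fold, Ntf3 (-1.13 ± 0.21) and the receptor Ntrk2 (-1.26 ± 0.36, adjusted p = 0.0214), which did not pass without CD271high C (0.0818), GER A (0.0814) or GER B (0.0619).

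The lower side as a whole was led by genes outside these lists. Ffar4, a receptor for long-chain fatty acids, read 6.17, 6.18 and 6.38 in CD271high and 10.23, 11.08 and 11.03 in GER, at least 15.5-fold lower. Cdh4, R-cadherin, read 8.17, 6.98 and 7.89 against 12.02, 11.64 and 12.03 (-4.21 ± 0.41, adjusted p = 1.14e-05), and Podn, podocan, a small matrix proteoglycan, 9.38, 7.95 and 8.70 against 13.38, 12.86 and 12.19 (-4.13 ± 0.40). The groups were separated by over 2 units in all 3. Others of the 15 lowest were Abcg8, a sterol transporter (at least 7.84-fold), and the transcription factor Msc (-3.90 ± 0.28), detected on only 1 CD271high array. B3gnt7, a glycosyltransferase of keratan sulfate (at least 9.19-fold), was also among them. So were P4ha2, a collagen prolyl hydroxylase (-3.72 ± 0.25), and Asic3, an acid-sensing ion channel (-3.71 ± 0.28). Dipk1c, Cobl, an actin nucleator, and Syt1, a calcium sensor of vesicle release, differed by -3.64, -3.40 and -3.37, Ggt7 by -3.29. Tshb, the beta chain of thyrotropin, and Slc47a1, a cation exporter, were at least 3.00-fold and 4.28-fold lower.

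Genes known to be induced by tissue dissociation were measured because sorting can raise them. Of 20 measured 5 were higher and 0 lower, with a median of 0.56, and the higher count was 1 without CD271high A or CD271high B and 2 without GER A. Their mean level was 10.78 to 11.83 in CD271high and 10.32 to 11.02 in GER, which overlapped. Zfp36, which destabilizes cytokine transcripts, was higher by 1.55 ± 0.38 (adjusted p = 0.00846). The part of this response in the chemokine and cytokine levels was not tested.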

How the data were processed

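RNA of sorted cochlear cells was amplified and biotin-labelled with an Ambion kit, per the labels, and put on 13 Illumina BeadChip arrays. The scanner file gave, per the file headers, a mean bead intensity and a detection p-value for 25697 probes, without normalization between arrays. The bead standard errors and bead counts deposited beside them were not used. The log2 values of the other file had been quantile normalized by the authors, since every array had a median of 8.143, and kept the scanner ranks (Spearman's rho 1). For scanner software and settings, the sources used here name nothing. Sample titles gave the population and replicate letter, also for GER C, whose description has the letter A.

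Values were computed from the intensities with neqc of limma 3.58.1 in R 4.3.3, which subtracts a background estimated from detection p-values, adds an offset of 16, applies quantile normalization and takes log2. The 13192 probes detected (p under 0.01) on 2 arrays or more were used, with the brightest probe standing for its gene. Names came from RefSeq (GRCm38.p6) for 24358 probes and from the file for 1339. A linear model with a mean for each of the 5 populations (lmFit, 8 residual degrees of freedom) was moderated by eBayes (3.7 prior degrees of freedom). Tests were two-sided. The fit was tested on simulated data. The number of arrays and the signal over background limit the precision.

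A gene undetected on all arrays of a group has only a bound there: the mean of the brighter group was set against, per array, the higher of the dimmest detected signal and the gene's own signal. Genes named were the 15 highest and 15 lowest differences among those that passed without overlap, leaving out clone and predicted names, up to 8 members of each list by absolute difference, and the sort proteins. Examples were drawn from these, and others are marked; some members of the lists are counted but not reported by name here. The 41 lists, written from general knowledge (739 entries, 708 on the array and 528 measured, some in several lists), and the comparison were chosen with earlier results of these data known. Alternatives changed the background correction, scaling, source table, probe filter, probe summary, arrays in the fit, beadchip and replicate terms, and left out each array.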

Additional observations from a re-analysis of the deposited data

How the results depend on the processing

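Across 11 alternative settings and 6 fits that each left out 1 array, no gene called in the main comparison was called in the other direction, except 1 gene without a filter on dim probes. The number of genes higher in CD271high was 1220 to 1335 and of genes lower 1147 to 1407 when 1 array was left out. Within beadchip 2, with 1 array a side, 328 were higher and 132 lower, 71.3% of the calls being higher against 47.4% in the main fit; fewer arrays stand behind that fit. There the macrophage list had 25 members higher, the Schwann and cell cycle lists 0. Median scaling gave 1463 higher and 1341 lower. The authors' log2 values, without background correction, gave 1510 and 1669, with smaller list medians: 4.01 for macrophage, 1.99 for Schwann and satellite glia, -1.59 for greater epithelial ridge and -0.30 for Notch genes. Leaving out the background correction here gave the same counts, so that setting and the authors' values are not separate checks. The replicate letters pair the samples in no label, and the deviations of same-letter arrays correlated by 0.141 (A), 0.054 (B) and 0.118 (C), each array doing so best with its own letter, a hint from the data only. With the letter as a replicate block 1546 genes were higher and 1743 lower. The sign changed for 5 named genes, of which Cpa3 passed in the main fit. Mertk ranged from -0.21 (without GER B) to 0.11 without 1 array, and was 0.0085 with median scaling, 0.19 within beadchip 2, 0.033 and 0.11 without CD271high B or C, and 0.10 and 0.056 without GER A or C. S100b was 0.093 within beadchip 2 and -0.21 (without CD271high A) to 0.082 (without CD271high C) without 1 array, and Ccne1 -0.43 (without GER B) to 0.00082 (without CD271high A). Ncam1 was 2.61 when probes had to be detected on all 3 arrays of a group, which left another of its probes, and 1.06 as a mean over probes. Cpa3 was -0.037 without a filter on dim probes. The signal over background limits genes near the floor, which lay at 6.76 to 6.88 in CD271high and 7.18 to 7.30 in GER.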
